A study of Mus musculus with 8 samples.

Results

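The genes described here encode the RANKL receptor RANK, its adaptor TRAF6, the NF-κB subunits and 3 inhibitors that NF-κB switches on in its own restraint. They were chosen by symbol from a list of 10: Tnfrsf11a, Traf6, Nfkb1, Nfkb2, Rel, Rela, Relb, Nfkbia, Nfkbie and Tnfaip3. A transcript cluster, the array's unit for a gene's transcripts, carried the symbol for 9 of them, 1 cluster each, among 19505 genes with a symbol. Nfkb1 was not analysed here. All 9 had a highest signal of at least 4.86 in log2 units, the filter that left 10871 measured genes.

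RANK is a receptor of the TNF receptor family on osteoclast precursors. On binding RANKL it recruits TRAF6, which activates the IκB kinases. These mark the IκB proteins for destruction and free NF-κB dimers of RELA, c-REL and the Nfkb1 product for entry into the nucleus. A slower route, through the kinase NIK (Map3k14), cuts the Nfkb2 precursor so that its product can pair with RELB. Mice that lack both Nfkb1 and Nfkb2 form no osteoclasts. NF-κB induces Nfkbia, Nfkbie and Tnfaip3, whose products in turn hold it back.

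Cells from the bone marrow of C57BL6/J mice were measured on 8 Affymetrix arrays, 1 array for each of 4 cultures on days 3 and 6. The MCSF culture received 50 ng/ml of MCSF, the growth factor of macrophages, and the MCSF&RANKL culture also 100 ng/ml of RANKL. The PSS1-WT and PSS1-LMS cultures were grown with MCSF and RANKL too and were infected, the day after, with retrovirus carrying the wild-type or the mutant form of PSS1, a phosphatidylserine synthase encoded by Ptdss1. The labels give neither the mutation nor the vector's promoter, nor whether the other cultures received an empty vector, nor how many animals gave the marrow.

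The promoters of the members were read for the κB element, the DNA site of NF-κB dimers, because several of these genes are known targets of the factor they serve. RefSeq windows on GRCm38.p6, from 250 bases before to 50 after a transcription start, were on hand for 8 of the 10 genes (11 windows). The κB consensus was searched on both strands, and overlapping matches were kept. It was present in at least 1 window of 5 of the 8 genes: Nfkb2, Rel, Nfkbia, Nfkbie and Tnfaip3. Over all genes, 5.14% of 27018 had a match in any window (4.51% of 32841 windows). The windows of Tnfrsf11a, Traf6 and Rela had none. A match is a stretch of letters and was not tested for binding. Shown are windows of the 4 genes with a match that were higher with RANKL, each 5′ to 3′ in the direction of the gene, with the matches in capitals. They lie at chr12:55492598-55492897 on the minus strand (Nfkbia), chr10:19015361-19015660 on the minus strand (Tnfaip3), chr19:46304487-46304786 on the plus strand (Nfkb2) and chr17:45555450-45555749 on the plus strand (Nfkbie).
Nfkbia: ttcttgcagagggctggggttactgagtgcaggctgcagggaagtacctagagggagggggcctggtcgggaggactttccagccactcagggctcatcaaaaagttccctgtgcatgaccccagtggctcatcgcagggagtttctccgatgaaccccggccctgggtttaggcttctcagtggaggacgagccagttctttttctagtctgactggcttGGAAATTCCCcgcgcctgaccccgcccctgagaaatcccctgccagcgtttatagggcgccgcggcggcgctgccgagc
Tnfaip3: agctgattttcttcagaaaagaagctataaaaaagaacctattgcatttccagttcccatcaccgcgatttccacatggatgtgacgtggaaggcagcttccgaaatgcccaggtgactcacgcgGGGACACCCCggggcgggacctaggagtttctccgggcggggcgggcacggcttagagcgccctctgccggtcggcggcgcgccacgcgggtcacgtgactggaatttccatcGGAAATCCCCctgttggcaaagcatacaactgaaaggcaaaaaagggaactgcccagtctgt
Nfkb2: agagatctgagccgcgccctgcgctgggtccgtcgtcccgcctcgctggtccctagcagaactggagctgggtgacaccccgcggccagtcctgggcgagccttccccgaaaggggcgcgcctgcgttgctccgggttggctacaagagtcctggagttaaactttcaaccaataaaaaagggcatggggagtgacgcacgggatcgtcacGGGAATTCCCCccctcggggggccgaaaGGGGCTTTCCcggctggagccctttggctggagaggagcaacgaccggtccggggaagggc
Nfkbie: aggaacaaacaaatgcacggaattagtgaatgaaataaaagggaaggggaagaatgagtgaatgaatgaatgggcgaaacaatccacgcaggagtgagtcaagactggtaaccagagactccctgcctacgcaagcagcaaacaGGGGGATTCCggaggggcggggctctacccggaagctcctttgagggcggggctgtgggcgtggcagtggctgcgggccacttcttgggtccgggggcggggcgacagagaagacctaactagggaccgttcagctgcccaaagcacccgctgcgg

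In the Nfkbia window the match, GGGAATTTCC, lay on the opposite strand with its first printed base at -29 from the start. Tnfaip3 had GGGACACCCC at -125 and, on the opposite strand, GGGGATTTCC at -12. Its other listed window, at an alternative start, had no match. In the Nfkb2 window GGGAATTCCC at -39, which reads the same on both strands, overlapped GGGGAATTCC at -38 on the opposite strand, and GGGGCTTTCC followed at -11. Both other Nfkb2 windows also held a match. Nfkbie had GGGGGATTCC at -106.

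Marker genes showed what the cultures contained. Markers of osteoclasts (9 of 9) rose with RANKL and 8 of 9 macrophage markers fell. The summed osteoclast signal was 21.56 to 21.74 on the arrays with RANKL, against 7.36 and 12.61 in the MCSF culture on days 3 and 6. The latter came from a single marker, Atp6v0d2 (12.55), with the other 8 within background. With RANKL, Acp5 and Ctsk reached 19.92 and 19.90, near the highest value of the whole table (19.93). Alike sums in these cultures need not mean alike osteoclast content. Markers of B cells (5), T and NK cells (6), stromal cells and osteoblasts (6) and erythroid cells (2) were within background on all 8 arrays, that is, at or under the brightest of 23 probe sets that match no mouse transcript, which lay between 5.54 and 7.13. Of 8 neutrophil markers 1 fell with RANKL; their summed signal was 14.20 to 14.85 on day 3 and 8.21 to 11.32 on day 6, when 6 or 7 of them were within background. Of 3 measured megakaryocyte and mast cell markers, 1, Pf4, fell with RANKL (summed signal of 5 markers 14.81 to 15.03 with MCSF and 7.58 to 8.24 with RANKL). The MCSF sums came from Pf4 alone (15.03 and 14.81 on days 3 and 6). Itga2b was at 6.37 and 6.11 there, and Gp9, Cpa3 and Mcpt8 were within background on all 8 arrays. Ptdss1, the gene of the transgene, stood at 17.50 to 18.91 in the PSS1 cultures and at 9.56 to 10.36 in the MCSF&RANKL culture. Each group is 1 array, so their number limits the precision. The tests below compare cultures over the 2 days with limma, and their p-values, adjusted over all 10871 measured genes by the Benjamini-Hochberg method, rest on how the differences varied between days. In the tests of day, and of the RANKL difference by day, they rest instead on the spread over the 3 cultures with RANKL, which differ in PSS1. None of these p-values covers the spread between animals or repeat cultures. In every test limma also draws a gene's error towards that of all measured genes. For PSS1 and day this shared part had 13.3 degrees of freedom, beside 2 of the gene's own. For RANKL it had 4.71 beside 3.

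The first comparison, MCSF&RANKL minus MCSF, asked how the receptor and its pathway responded to RANKL. The receptor, its adaptor, Nfkb2 and all 3 inhibitors rose: 6 of 9 members (66.7%), while 14.1% of all measured genes rose and 12.4% fell. Members, and the lists below, were chosen with earlier results of these data known, so their shares are descriptions and not a test. No member fell, and Rel, Rela and Relb did not pass. The median log2 difference was 1.37 over the members and 0.03 over all measured genes. All 6 arrays with RANKL lay above both MCSF arrays for 7 of 9 members, a pattern that 22.2% of all measured genes shared. In bulk RNA, more cells of a type and more RNA per cell cannot be told apart.

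**Figure D1:**
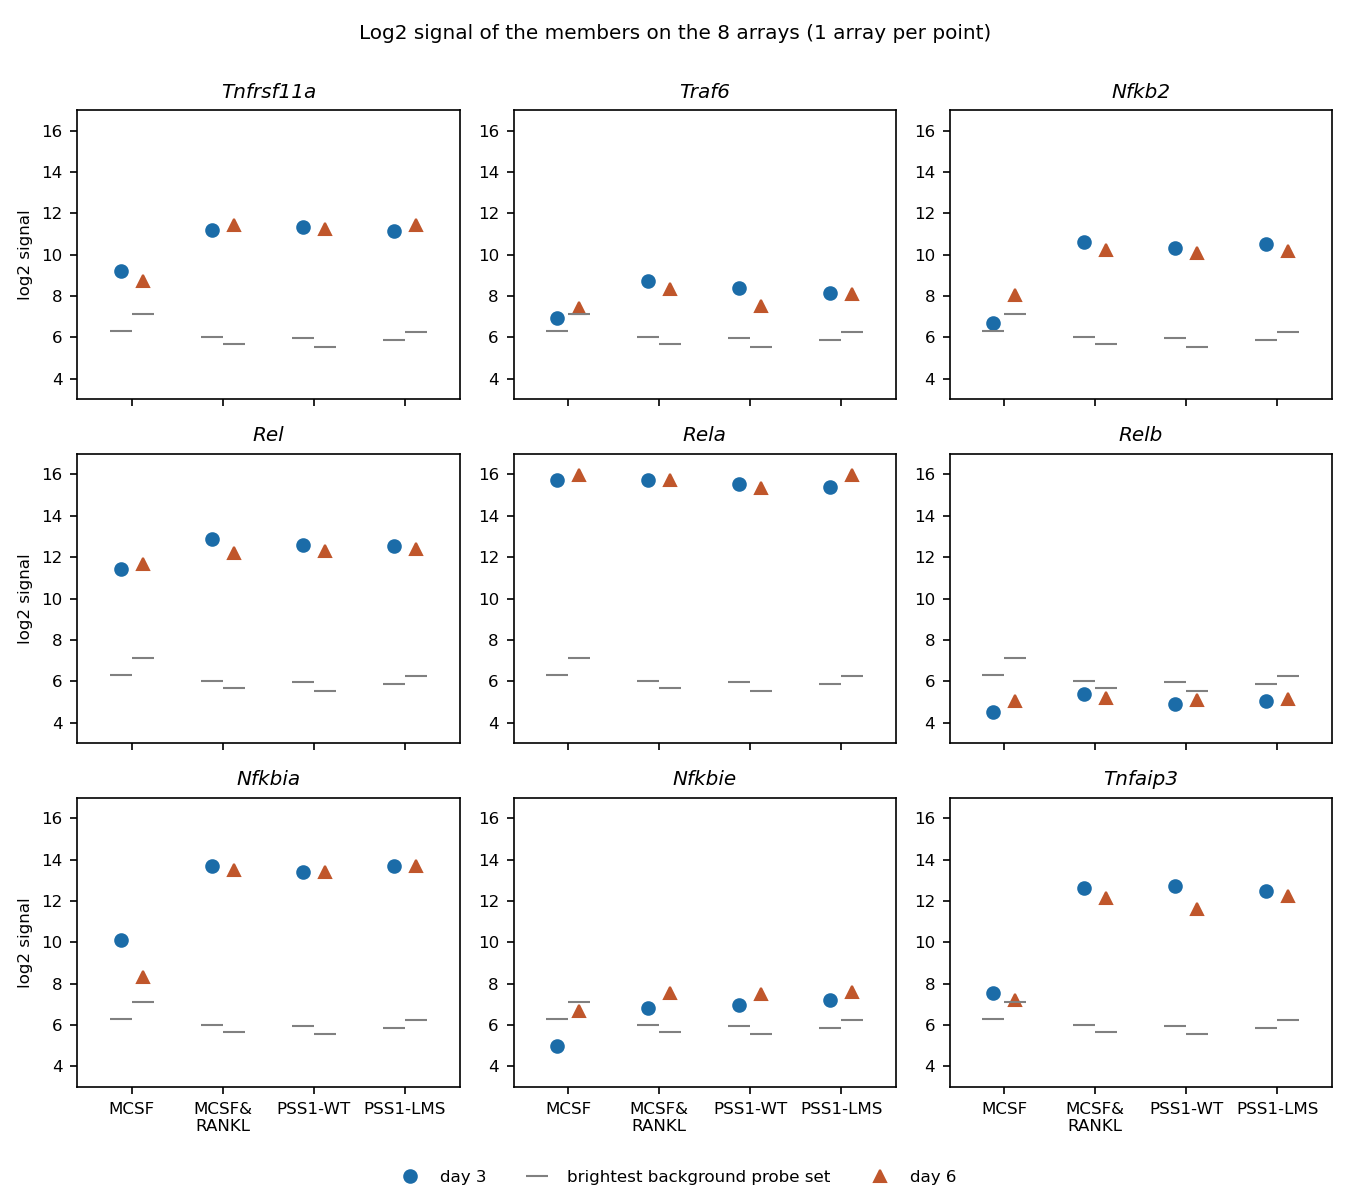
Log2 signal (vertical axis) of the 9 members in the 4 cultures, with circles for day 3, triangles for day 6 and grey bars for the array's background limit; each point is 1 array. Nfkbia and Tnfaip3 stand far above the MCSF culture on every array with RANKL, the Rela points of the cultures overlap and Relb lies under the background bars; heights of different genes cannot be compared, since each has its own probes.

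Tnfrsf11a, the gene of RANK itself, had a log2 signal of 9.22 and 8.74 in the MCSF culture on days 3 and 6. In the MCSF&RANKL culture it stood at 11.22 and 11.45, with PSS1-WT at 11.33 and 11.23 and with PSS1-LMS at 11.13 and 11.45. The groups did not overlap, and the 6 arrays with RANKL spanned 0.32 log2 units at most between days of a culture. The rise averaged 2.36 ± 0.32 (SE), or 5.13-fold, by limma (adjusted p = 0.00129).

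Traf6, the ubiquitin ligase that RANK recruits, moved less. Its signals in the MCSF culture were 6.93 and 7.41. They were 8.75 and 8.32 with MCSF&RANKL, 8.41 and 7.51 with PSS1-WT, and 8.16 and 8.12 with PSS1-LMS. The PSS1-WT array of day 6 lay 0.11 above the higher MCSF array, so the groups only just separated. Traf6 rose by 1.37 ± 0.38, 2.59-fold (limma, adjusted p = 0.0313). This call rested on single arrays: the adjusted p was 0.220 without the MCSF&RANKL array of day 3 (difference 1.23), 0.148 without that of day 6 (1.51), and 0.0636 when either PSS1-LMS array was omitted (1.37). The difference was 0.90 without the MCSF array of day 3 and 1.84 without that of day 6. In such a fit the MCSF array left is fitted exactly. The MCSF change between days then drops out of the error, so only the size is given. Traf6 did not pass with signals under 7.13 raised to 7.13 (limma, 1.27, adjusted p = 0.0995).

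Nfkb2, the precursor gene of the slower route, rose most among the subunits. It read 6.68 and 8.06 in the MCSF culture on days 3 and 6, and 10.61 and 10.24 with MCSF&RANKL. With PSS1-WT it was 10.33 and 10.09, and with PSS1-LMS 10.53 and 10.16. Every array with RANKL was at least 2.02 above both MCSF arrays. The rise was 3.05 ± 0.47, 8.30-fold (limma, adjusted p = 0.00243). It was 2.20 without the MCSF array of day 3 and 3.91 without that of day 6. Only the sizes are given, since the MCSF array left is fitted exactly.

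Rel, the gene of c-REL, was at 11.43 and 11.67 in the MCSF culture. It was at 12.88 and 12.20 with MCSF&RANKL, at 12.57 and 12.28 with PSS1-WT, and at 12.54 and 12.40 with PSS1-LMS. All 6 arrays with RANKL were thus higher, by 0.53 or more, but the difference of 0.99 ± 0.32 did not pass (limma, adjusted p = 0.0580). It passed when the mean of the 3 cultures with RANKL was set against MCSF (limma, 0.93, adjusted p = 0.00774). Without the MCSF array of day 6 the difference was 1.29.

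Rela, the main activating subunit, showed no such separation. Its signals were 15.73 and 15.99 with MCSF, 15.72 and 15.72 with MCSF&RANKL, 15.52 and 15.34 with PSS1-WT, and 15.41 and 15.98 with PSS1-LMS. The groups overlapped, and the difference was -0.14 ± 0.31 (limma, adjusted p = 0.790; 95% interval -0.85 to 0.58). Relb, the partner of the Nfkb2 product, was within background on all 8 arrays, between 4.49 and 5.36, so no fold is given. Its difference was 0.50 ± 0.31 (limma, adjusted p = 0.286).

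Among the inhibitors, Tnfaip3 encodes A20, which edits ubiquitin chains on the signalling complex. It was at 7.57 and 7.23 in the MCSF culture, and at 12.63 and 12.14 with MCSF&RANKL. PSS1-WT gave 12.72 and 11.62, and PSS1-LMS 12.48 and 12.25. The lowest array with RANKL was 4.05 above the higher MCSF array. The rise of 4.99 ± 0.32, 31.7-fold, was the largest among the 9 members (limma, adjusted p = 3.96e-05).

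Nfkbia encodes IκBα, the inhibitor that holds NF-κB in the cytoplasm. Its signals were 10.12 and 8.30 with MCSF, and 13.68 and 13.49 with MCSF&RANKL. They were 13.40 on both days with PSS1-WT, and 13.70 and 13.69 with PSS1-LMS. The 6 arrays with RANKL lay within 0.30 log2 units (PSS1-LMS minus PSS1-WT on day 3), while the MCSF arrays were 1.82 apart. Nfkbia rose by 4.38 ± 0.48, 20.8-fold (limma, adjusted p = 0.000452). The rise was 5.26 without the MCSF array of day 3 and 3.50 without that of day 6. Only the sizes are given, since the MCSF array left is fitted exactly.

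Nfkbie, the gene of IκBε, was within background in the MCSF culture, at 4.97 and 6.67. With MCSF&RANKL it was at 6.81 and 7.56, with PSS1-WT at 6.98 and 7.50, and with PSS1-LMS at 7.22 and 7.61. The lowest array with RANKL was only 0.14 above the MCSF array of day 6. Nfkbie rose by 1.37 ± 0.38, at least 1.39-fold (limma, adjusted p = 0.0323). Its adjusted p was above the threshold without any single array except the MCSF array of day 6: 0.0581 without MCSF day 3 (difference 0.79), 0.203 and 0.175 without MCSF&RANKL day 3 and day 6 (1.31 and 1.43), 0.0594 without PSS1-WT of either day and 0.0560 without PSS1-LMS of either day (1.37 each). The exception adds no weight to the rise, since the MCSF array left is fitted exactly and the MCSF change between days leaves the error. With signals under 7.13 raised to 7.13 the difference was 0.22 (limma, adjusted p = 0.399).

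**Figure D2:**
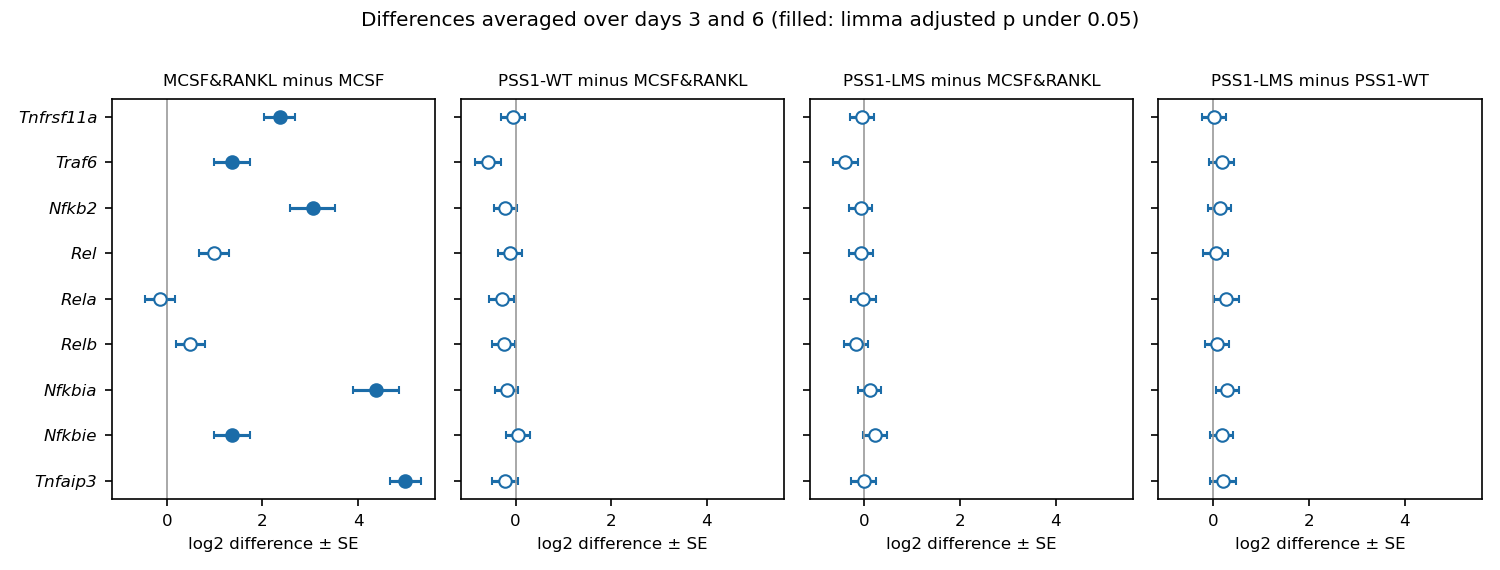
Log2 difference averaged over days 3 and 6 (horizontal axis) with its standard error from limma (bars) for each member in 4 comparisons; filled points passed an adjusted p of 0.05. With RANKL 6 members are filled, from 1.37 to 4.99, and in the 3 comparisons of PSS1 cultures every point is open and lies between -0.57 and 0.29.

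Beside these rises stood the change of cell type. Of 4 measured dendritic cell markers, a cell type known to be rich in Nfkb2 and Relb, 3 rose with RANKL: Itgax, H2-Aa and H2-Eb1. Of these, Itgax was within background on 7 of 8 arrays and H2-Eb1 on 5. Ccr7 did not rise (-0.11 ± 0.33), and Flt3, Zbtb46 and Ciita were within background on all 8 arrays. The summed signal over 7 dendritic cell markers was 7.77 to 7.95 with MCSF and 8.22 to 8.81 with RANKL, with 4 to 7 of the 7 within background. Whether the cultures held such cells, and their part in the result, was not tested.

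The rest of the pathway was taken from lists of adaptors and kinases, of other inhibitors, of targets, and of related receptors, and its members moved in both directions. Of 18 measured adaptors and kinases, 7 rose and 3 fell (median 0.16). Traf1, an adaptor that NF-κB induces, rose by 7.56 ± 0.31, at least 53.6-fold. Tank, which binds TRAF proteins and tempers their signal, rose by 3.72 ± 0.30, 13.2-fold. Birc3, a ubiquitin ligase in TNF receptor complexes, rose by 3.18 ± 0.55, 9.09-fold, and Ikbkg, the regulatory subunit NEMO of the IκB kinase, by 2.75 ± 0.59, at least 4.20-fold. The 3 that fell were kinases. Ikbke, an IκB kinase relative of the interferon response, fell (-3.71 ± 0.33, at least 11.4-fold), as did Map3k14, the kinase NIK that starts Nfkb2 processing (-1.40 ± 0.38, 2.64-fold). Map3k8, a kinase bound to the Nfkb1 precursor, passed too (-1.95 ± 0.38), but it was within background on 7 of 8 arrays, so no fold is given.

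Of 16 other IκB proteins and inhibitors, 4 rose and 2 fell (median 0.32). Nfkbid, a nuclear IκB protein, rose 6.20-fold, Tnip1, a partner of A20, 5.43-fold, Bcl3, a nuclear IκB protein that binds the Nfkb1 and Nfkb2 products, 4.47-fold, and the deubiquitinase gene Otud7b at least 2.06-fold. Tnip3, another A20 partner, fell (-2.49 ± 0.67) and so did Pdlim2, which promotes the breakdown of RELA (-1.65 ± 0.34).

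Of the inflammatory and survival targets of NF-κB, 1 rose and 1 fell (median 0.07). Of 20 with a cluster, 11 were within background on all 8 arrays, among them Il1b, Il6, Nos2 and Ptgs2. Of 11 measured, Sod2, the mitochondrial superoxide dismutase, rose by 2.13 ± 0.38, and Cd40, also within background throughout, fell (-1.30 ± 0.36). Among 9 measured ligands, decoys and receptors, Tnfrsf9, the receptor 4-1BB, rose by 5.41 ± 0.31, at least 17.3-fold, and Lgr4, another RANKL receptor, by 1.37 ± 0.35, at least 1.18-fold. Tnfrsf1a, a TNF receptor, fell (-1.85 ± 0.28, 3.62-fold). Tnfsf11 and Tnfrsf11b, the genes of RANKL and of its decoy osteoprotegerin, were within background on all 8 arrays. Over all 4 lists the shares that rose or fell are to be read against the 26.4% of all measured genes that changed.

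**Figure D3:**
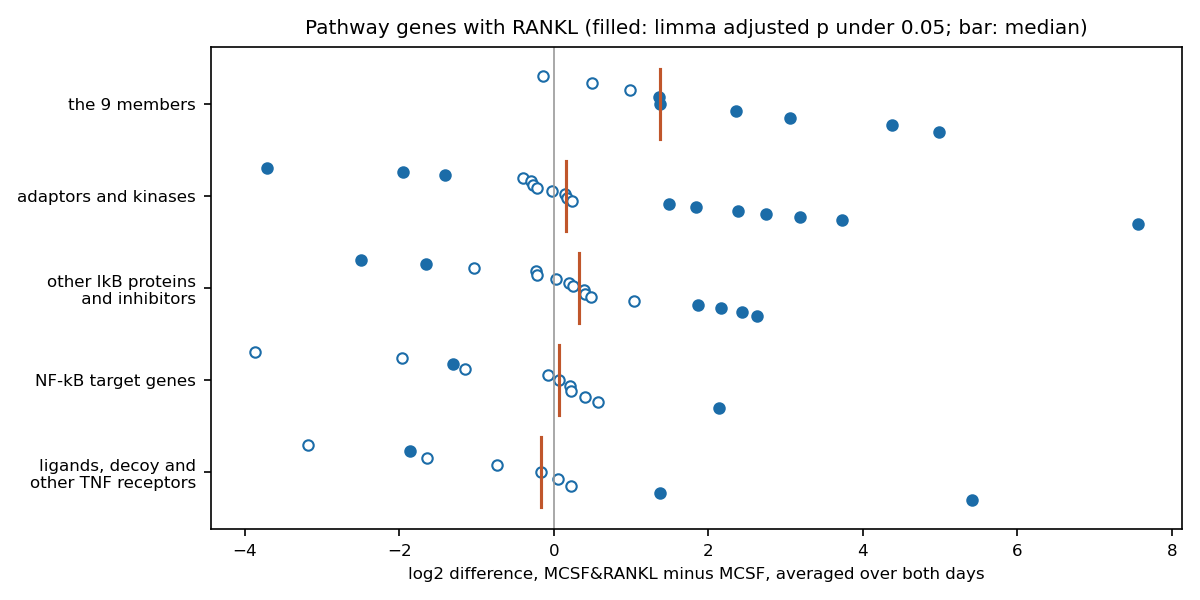
Log2 difference between MCSF&RANKL and MCSF averaged over both days (horizontal axis) for the 9 members and 4 lists of pathway genes; each point is a measured gene, filled where the limma adjusted p was under 0.05, and the bar is the median. The members' median is 1.37, and the medians of the lists lie between -0.16 and 0.32 with points on both sides of 0.

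Several of these list calls rested on low signals or on single arrays. With signals under 7.13 raised to 7.13, limma no longer called Map3k8 (-0.03, adjusted p = 0.467), Lgr4 (0.05, 0.875), Otud7b (0.62, 0.192) or Ikbkg (1.65, 0.0912). In that fit Birc3 (3.18, 0.0724), Map3k14 (-1.40, 0.108), Bcl3 (2.16, 0.123) and Tnip3 (-2.49, 0.183) kept their size and lost the call. They had no signal under 7.13, so their values were the same and the lost calls do not speak of low signals. Over all genes that fit called 1453, against 2875 in the main fit. On the 4 MCSF and MCSF&RANKL arrays alone Cd40 (-1.30, 0.0938), Lgr4 (1.37, 0.0808) and Map3k14 (-1.40, 0.0790) did not pass. The MCSF arrays set the size of several differences. Without that of day 3 and without that of day 6, the differences were 1.21 and 3.11 for Bcl3, 2.14 and 4.23 for Birc3, 1.63 and 3.87 for Ikbkg, -1.16 and -3.82 for Tnip3, and -1.99 and -0.82 for Map3k14. Only these sizes are given, since the MCSF array left is fitted exactly. Several calls were lost without an MCSF&RANKL array. Without that of day 3, limma gave an adjusted p of 0.0609 for Birc3 (difference 3.08), 0.105 for Ikbkg (2.69), 0.0533 for Map3k8 (-2.18), 0.117 for Map3k14 (-1.61), 0.148 for Bcl3 (2.02), 0.209 for Tnip3 (-2.24), 0.116 for Pdlim2 (-1.47), 0.0708 for Sod2 (1.99), 0.231 for Cd40 (-1.13) and 0.238 for Lgr4 (0.94). Without that of day 6 it gave 0.0531 for Birc3 (3.29), 0.0982 for Ikbkg (2.81), 0.106 for Map3k8 (-1.71), 0.234 for Map3k14 (-1.19), 0.111 for Bcl3 (2.30), 0.139 for Tnip3 (-2.74), 0.0676 for Pdlim2 (-1.83), 0.0615 for Otud7b (1.71) and 0.136 for Cd40 (-1.47). Without either PSS1-WT array the values were 0.0552 for Map3k14 (-1.40), 0.0535 for Tnip3 (-2.49) and 0.0583 for Cd40 (-1.30), without either PSS1-LMS array 0.0567 for Map3k14 (-1.40), 0.0530 for Lgr4 (1.37) and 0.0638 for Cd40 (-1.30), and without the MCSF array of day 3 0.0573 for Cd40 (-0.78). Traf1, Tank, Ikbke, Nfkbid, Tnip1, Tnfrsf9 and Tnfrsf1a were called in each of these fits.

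The next comparisons asked whether wild-type or mutant PSS1 altered these genes in cells with RANKL. They did not do so detectably: no member passed for PSS1-WT, for PSS1-LMS or for PSS1-LMS against PSS1-WT by limma. Of all measured genes 0.0092% were higher and 0% lower for PSS1-WT, 0.156% higher and 0.0184% lower for PSS1-LMS (0.175% in all), and 0% either way between the PSS1 cultures. Before adjustment limma put 1 member, Traf6, under the threshold for PSS1-WT and 0 in each of the others, against 746, 714 and 773 of all measured genes. No gene of the 4 pathway lists passed in these comparisons either. Of the cell type markers only Mmp8, a neutrophil marker, passed, and only for PSS1-LMS (1.46 ± 0.27, limma, adjusted p = 0.0388). The macrophage markers had a median of 0.63 for PSS1-LMS against PSS1-WT, beside 0.04 over all measured genes, and none passed. The osteoclast markers had a median of 0.03 there. The part of these cells in the members' values was not tested. The PSS1-WT and PSS1-LMS differences share the MCSF&RANKL arrays.

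With PSS1-WT the members' differences ran from -0.57 ± 0.27 for Traf6 (limma, adjusted p = 0.712) to 0.05 ± 0.25 for Nfkbie, and 8 of 9 were negative (7 of 9 after quantile normalization). Their median was -0.21, and that of all measured genes was also negative (-0.06). Traf6 was lower on both days, by -0.34 and -0.81. The 95% intervals, not adjusted for the number of genes, reached from -1.14 for Traf6 to 0.58 for Nfkbie over the 9 members. For the receptor gene Tnfrsf11a the difference was -0.06 (interval -0.59 to 0.47). Nfkbia had -0.19 (-0.71 to 0.33) and Tnfaip3 -0.22 (-0.79 to 0.35).

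With PSS1-LMS the differences ran from -0.40 ± 0.27 for Traf6 (limma, adjusted p = 0.910) to 0.22 ± 0.25 for Nfkbie. The intervals reached from -0.97 for Traf6 to 0.75 for Nfkbie. Tnfrsf11a had -0.05 (-0.58 to 0.48), Nfkbia 0.11 (-0.41 to 0.63) and Tnfaip3 -0.02 (-0.59 to 0.55).

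Between the mutant and the wild-type culture all 9 differences were positive (8 of 9 after quantile normalization), with a median of 0.17 against 0.04 over all measured genes. The PSS1-WT arrays enter here with the opposite sign to the PSS1-WT comparison above, so these counts of signs are not separate results. The share of all measured genes with each sign was not computed. The highest was Nfkbia at 0.29 ± 0.24 (limma, adjusted p = 0.852), with 0.30 on day 3 and 0.29 on day 6. Rela followed at 0.27 ± 0.26, with -0.11 on day 3 and 0.64 on day 6. The intervals reached from -0.51 for Tnfrsf11a to 0.83 for Rela. None of the 9 was thus shown to differ, and a difference of the size of the RANKL response of Nfkbia lies outside its interval (-0.22 to 0.81).

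Over time, no member was shown to change in cells with RANKL. From day 3 to day 6, 0 of 9 passed over the 3 cultures with RANKL (limma), where 3.38% of all measured genes did (1.31% higher, 2.07% lower). Before adjustment 2 of 9 members and 1844 of 10871 measured genes were under the threshold. The largest shifts were in Tnfaip3 (-0.60 ± 0.22, adjusted p = 0.166), lower in all 3 cultures by -0.48, -1.10 and -0.22, and in Nfkbie (0.55 ± 0.20, adjusted p = 0.167), higher in all 3 by 0.75, 0.52 and 0.39. Their unadjusted 95% intervals, -1.07 to -0.13 and 0.12 to 0.98, do not hold 0. Nfkbia changed by -0.07 ± 0.20. All 8 neutrophil markers fell and 4 of 9 macrophage markers (C1qa, C1qb, Mrc1 and Cd14) rose over the same days with RANKL. The other 5 did not pass, with Adgre1, C1qc and Mertk higher and Csf1r (-0.26) and Fcgr1 (-0.49) lower. The summed macrophage signal with RANKL was 16.56 to 16.77 on day 3 and 16.41 to 16.48 on day 6. The part of neutrophils and macrophages in the members' values was not tested.

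Of the pathway lists, the 3 measured copies of the survival gene Bcl2a1 rose from day 3 to day 6: Bcl2a1a by 1.21 ± 0.23, Bcl2a1b by 1.67 ± 0.22 and Bcl2a1d by 1.46 ± 0.23. These copies are nearly identical, so probes may not tell them apart. Tnfrsf9 rose by 0.93 ± 0.22 (limma, adjusted p = 0.0282), Tnip3 rose by 0.91 ± 0.22 (0.0328), and Ikbkg fell (-1.03 ± 0.22, adjusted p = 0.0165). Without a PSS1-LMS array of either day, Ikbkg (-0.83, adjusted p = 0.100), Tnip3 (0.66, 0.267) and Tnfrsf9 (0.92, 0.0521) did not pass, nor did Tnfrsf9 without an MCSF&RANKL array of either day (0.72, 0.0741). No gene at all passed in the fit with raised low signals, so that fit cannot judge these 6 genes. Of the 6, only Bcl2a1b was called when all 8 arrays were fitted. Without the filter on low values Tnfrsf9 (adjusted p = 0.0562) and Tnip3 (0.0636) did not pass.

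In the MCSF culture Nfkbia, Nfkb2, Nfkbie, Tnfrsf11a and Relb moved further between days than in any culture with RANKL. From day 3 to day 6 the Nfkbia signal there went down by 1.82, from 10.12 to 8.30, while Nfkb2 went up by 1.39 and Nfkbie by 1.70. Tnfrsf11a changed by -0.48, and Relb, within background on every array, by 0.58. For Tnfaip3, Traf6, Rel and Rela a culture with RANKL moved further than MCSF: by -1.10 against -0.34 (Tnfaip3, PSS1-WT), -0.90 against 0.48 (Traf6, PSS1-WT), -0.69 against 0.24 (Rel, MCSF&RANKL) and 0.57 against 0.26 (Rela, PSS1-LMS). For Nfkbia and Nfkb2 the RANKL difference changed with the day. For Nfkbia it was 3.56 on day 3 and 5.19 on day 6 between the MCSF&RANKL and MCSF arrays, and for Nfkb2 3.93 and 2.17. With the 3 cultures with RANKL taken as a group, the change of the RANKL difference from day 3 to day 6 passed for both: 1.76 ± 0.38 for Nfkbia (limma, adjusted p = 0.00721) and -1.71 ± 0.37 for Nfkb2 (adjusted p = 0.00686). These are 2 of 9 members, 1 each way, beside 19.7% of all measured genes (8.49% higher, 11.3% lower). Nfkbie missed the threshold (-1.15 ± 0.38, adjusted p = 0.0510). Tnfaip3 gave 5.06 and 4.91 on the 2 days (-0.27 ± 0.43, adjusted p = 0.703). MCSF had 1 array a day, so its own spread is not in these errors.

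**Figure D4:**
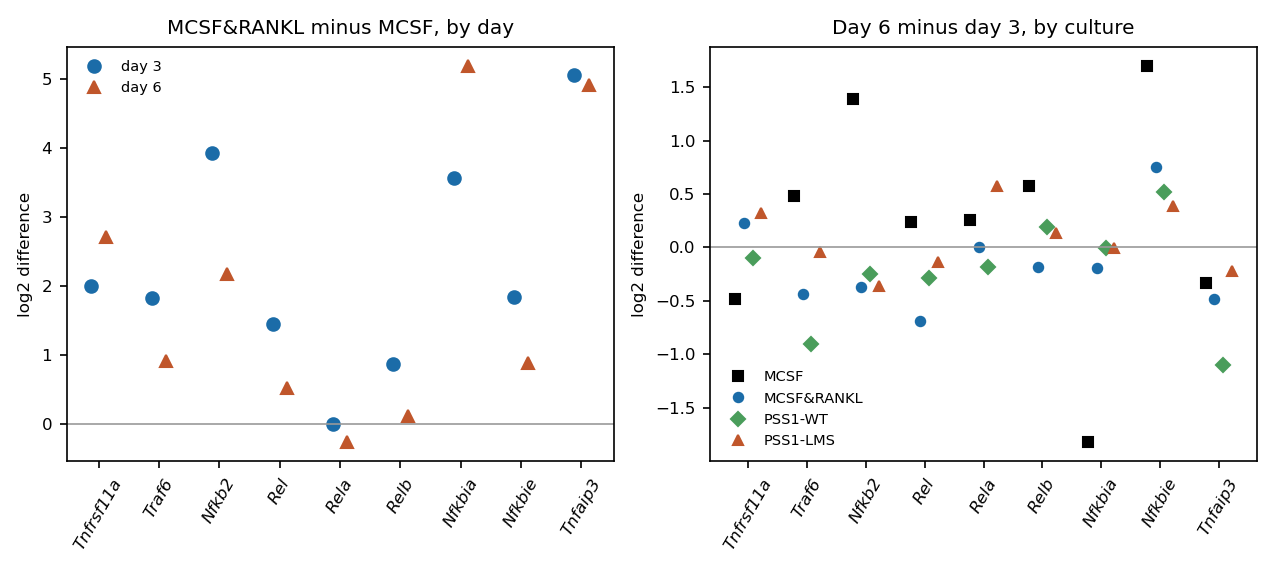
Left, log2 difference between MCSF&RANKL and MCSF for each member on day 3 (circles) and day 6 (triangles); right, log2 difference between day 6 and day 3 in each of the 4 cultures, 1 array per day. The MCSF culture (squares) moves by -1.82 for Nfkbia, 1.39 for Nfkb2 and 1.70 for Nfkbie, while the cultures with RANKL move by -1.10 to 0.75 over all 9 members.

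Several other transcripts moved in the MCSF culture over the same days, in both directions. The chemokine gene Ccl2 went down from 14.79 to 5.88 and Tnf, itself an inducer of NF-κB, from 11.39 to 7.24. Among the listed genes that went up were Tnfrsf1b (7.82 to 12.42), Cflar (7.77 to 10.55), Birc3 (10.59 to 12.66) and Irf1 (7.91 to 9.85). The summed macrophage signal went from 18.16 to 19.89. The summed neutrophil signal went from 14.85 to 11.32, with 2 and then 7 of 8 neutrophil markers within background. In cells with RANKL the macrophage sum was 16.41 to 16.77, nearly all of it from Csf1r, the MCSF receptor gene (16.37 to 16.75). The part of these cells in the Nfkbia and Nfkb2 values was not tested. In the same test 5 of 18 adaptors and kinases were lower on day 6, relative to MCSF, than on day 3 and none higher, led by Ikbkg (-2.24) and Birc3 (-2.09). Of 16 other inhibitors 3 were lower and 1, Tnip3 (2.67), was higher, where 11.3% of all measured genes were lower and 8.49% higher.

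The genes with the profile most like each member over the 8 arrays were found as the smallest root mean square difference of log2 values centred on each gene's mean. Of the arrays 6 share RANKL, and no p is given. For Tnfaip3 it was Ppif (0.13 log2 units, Pearson r = 0.999) and for Tnfrsf11a it was Gtf3c5 and Coq3 (0.15 each, r = 0.992 and 0.990). Nfkb2 was closest to Sdhb and Sdhd (0.195 and 0.197, r = 0.990 each), and Nfkbia to Plcb2 and Cd109 (0.28 and 0.29, r = 0.989 each). Traf6 was closest to Tmem241 (0.12, r = 0.978) and Nfkbie to Akr1c12 (0.17, r = 0.980). Cd109 and Akr1c12 were each within background on 2 arrays. Rel was closest to Endog (0.07, r = 0.988) and Rela to Pcbp3 (0.11, r = 0.886), both within background on all 8 arrays. Relb, itself within background, was closest to Commd3 (0.09, r = 0.943).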

How the data were processed

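Total RNA of 8 cultures, 1 per group, was labelled from 500 ng and hybridised to Affymetrix arrays, per the labels' protocols. Log2 signals of 28846 features were deposited by the authors. The sources used here do not state their summarisation or normalisation, and the log2 scale was inferred from the range of the table. They were used as deposited. Genes were named through the platform annotation, 19572 clusters with a single symbol, taking the cluster with the highest mean (55 genes had several). A gene was measured if its highest value reached 4.86, the 50th percentile of the table.

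Differences came from linear models with culture and day as terms (limma 3.58.1, R 4.3.3, with eBayes moderation) on all 8 arrays for RANKL and on the 6 with RANKL for PSS1 and day. The change of the RANKL difference between days used RANKL, day and their product. The code was tested on simulated data. Where the low side was within background, folds are "at least", computed against each array's brightest background probe set.

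Alternatives were array centring, quantile normalization, other filters, cluster means, eBayes with trend, a floor, other array sets and leaving out each array. All 9 members are named; list genes are named by the 4 largest passing differences per direction. Members and lists were chosen with earlier results of these data known. Nfkb1 is not analysed here.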

Additional observations from a re-analysis of the deposited data

Results flagged for a closer look

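The change of the RANKL difference from day 3 to day 6 passed the limma threshold for 2 of 9 members and 16 of 54 other measured pathway genes, beside 19.7% of all measured genes (8.49% higher, 11.3% lower); the values are the RANKL difference on day 6 minus that on day 3, and each rests on 1 MCSF array a day. Nfkbia had 1.76 and Nfkb2 -1.71. Higher on day 6 were also Ccl2 (9.26), Tnf (4.19) and Tnip3 (2.67). Lower were the receptors Tnfrsf1b (-4.64) and Tnfrsf13b (-1.99), the apoptosis inhibitor Cflar (-2.71), Ikbkg (-2.24), Birc3 (-2.09), the ubiquitin ligase Itch (-2.01), the transcription factor Irf1 (-1.98), Nfkbib (-1.97), Bcl3 (-1.89), Cd83 (-1.71), Gab2 (-1.49), Ikbkb (-1.30) and Birc2 (-1.26). Cd83 was within background on all 8 arrays. Birc2 and Ikbkb lost the call without the MCSF&RANKL array of day 3 (-1.20, adjusted p = 0.0652, and -1.27, 0.0574), without the PSS1-LMS array of day 3 (-1.25, 0.0648, and -1.24, 0.0654) and without the day 6 array of that culture (-1.23, 0.0564, and -1.23, 0.0542), and Birc2 also without the PSS1-WT array of day 3 (-1.32, 0.0537). With signals under 7.13 raised to 7.13, Bcl3 (limma, adjusted p = 0.0702), Gab2 (0.0886), Ikbkg (0.411), Irf1 (0.0674), Nfkbib (0.0987) and Tnip3 (0.0895) did not pass. Bcl3, Gab2, Nfkbib and Tnip3 had no signal under 7.13, so their own values were the same in that fit. Without the filter on low values Birc2 (0.0634), Gab2 (0.0522) and Ikbkb (0.0562) did not, nor did Birc2 after quantile normalization (0.0557).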

How the results depend on the processing

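With RANKL, Tnfaip3, Nfkbia, Nfkb2 and Tnfrsf11a passed under all 17 alternatives, Traf6 under 11 and Nfkbie under 8, and no member reversed. These 17 are not independent checks. Cluster means, filters, the trend and leaving out a PSS1 array cannot change a member's difference. Leaving out an MCSF array takes the MCSF change between days out of the error. On the 4 MCSF and MCSF&RANKL arrays alone, Traf6 (adjusted p = 0.0740) and Nfkbie (0.0761) did not pass. No member passed for PSS1 or day under any alternative. The change of the RANKL difference with day held for Nfkbia and Nfkb2 under all 13. There Nfkbie also passed after centring and with the filter at the background probe sets (2 members lower each), and with values floored at 7.13 it reversed to 0.40 (adjusted p = 0.0359; 2 members higher) and Birc2 to 0.062. Cultures are matched by day alone, and day is a term in every fit; the labels give no replicate numbers to pair by.

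Over all genes, 2875 changed with RANKL, 1453 with floored values, and 1198 to 4545 without single arrays. For PSS1-WT 1 gene passed, against 2 with the background filter or with trend, 0 floored, and 3 to 61 without single arrays. For PSS1-LMS 19 passed, against 1 after centring, quantile normalization or on all 8 arrays, 2 unfiltered, 33 with the background filter, 43 with trend, 0 floored and 11 to 83 without single arrays. Between them 0 passed, against 2 with the background filter, 7 with trend and 0 to 48 without single arrays. For day 367 passed, against 230 unfiltered, 0 floored, 31 on all 8 arrays and 270 to 678 without single arrays. The floor left 2061 of 8864 genes constant on the 6 arrays with RANKL; otherwise the cause was not tested. Signals within background limit Relb and Nfkbie, and Map3k8, Lgr4, Otud7b, Ikbkg and Cd40 among the lists.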
